A study of Mus musculus with 6 samples.

Results

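Type IV collagen is encoded in the mouse by 6 genes, Col4a1 to Col4a6, which the array platform covers with 12 probe sets of 45037 in all, control probe sets aside. They were chosen by gene symbol, with every probe set that the platform annotation gives to 1 of these genes included and none picked for its values. A probe set is a group of short probes for 1 transcript region, and its intensity reports how much labelled RNA bound there. Intensities are given as log2 values, on which a step of 1 is a doubling. The brightness of a probe set also depends on its own probes, so it does not show which of several genes has more RNA. Where 1 probe set was subtracted from another, only the change with genotype was read. Sums over marker lists follow their brightest probe sets.

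RNA of isolated adult retinas was measured on 6 Affymetrix mouse arrays. In 3 of them the retinas came from mice lacking Onecut2 throughout the body (OC2-KO), and in 3 from wildtype littermates (OC2-WT), with no treatment. The labels give the stage as adult and no further age, sex or strain, and they do not say that each array is a separate animal, so a p-value here covers array-to-array spread, which may be technical. Onecut2 is a transcription factor of the cut homeodomain family that developing horizontal cells express, and the comparison asks which retinal transcripts differ without it.

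Type IV collagen is the sheet-forming collagen of basement membranes. Its chains wind into triple helices that assemble in the endoplasmic reticulum, leave the cell and join into a network through their ends. The network of Col4a1 and Col4a2 chains underlies nearly every epithelium and blood vessel. A more strongly crosslinked network of Col4a3, Col4a4 and Col4a5 chains occurs in the kidney glomerulus, the cochlea and the eye, where the inner limiting membrane at the vitreal face of the retina, Bruch's membrane and the lens capsule contain it. Loss of any of those chains causes Alport syndrome. Col4a6 joins Col4a5 in a further network, and COL4A1 and COL4A2 variants in people cause small vessel disease that can reach the retina.

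The genes lie in pairs that start back to back on opposite strands, and the bases around the starts are shown because the members are described pair by pair. RefSeq promoter windows (250 bases before and 50 after the start, assembly GRCm38.p6) were at hand for 5 of the 6 genes, all but Col4a3, whose start was taken from the RefSeq gene table of the same assembly. Between the Col4a4 start and the Col4a3 start lie 71 bases of chromosome 1 (chr1:82586850-82586920, plus strand, 69% G and C). On chromosome 8 the first 22 bases of Col4a1 and Col4a2 are the same bases read from opposite strands (chr8:11312805-11312826, plus strand). The starts used for the Col4a5 and Col4a6 windows on chromosome X are 1342 bases apart. Both genes also have an annotated start nearer to the other gene, and the 71 bases before the outermost of these are printed from chrX:141474096-141474166 (minus strand) and chrX:141475299-141475369 (plus strand). Capitals mark motifs found on either strand. The motifs searched were the CCAAT box (letters CCAAT), the GC box (letters GGGCGG), the TATA box (letters TATAAA) and the core of Onecut binding sites in both its forms, the first with letters ATTGAT and the other with letters ATTGAC.
Col4a3/Col4a4: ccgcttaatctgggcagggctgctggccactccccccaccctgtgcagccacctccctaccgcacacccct
Col4a1/Col4a2: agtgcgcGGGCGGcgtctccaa
Col4a6: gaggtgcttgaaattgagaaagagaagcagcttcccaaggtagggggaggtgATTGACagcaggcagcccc
Col4a5: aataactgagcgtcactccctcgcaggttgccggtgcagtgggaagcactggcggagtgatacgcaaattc

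None of the 5 motifs was in the Col4a4 window of 300 bases. Both Col4a1 and Col4a2 windows held CCAAT once, and GGGCGG was there 1 and 3 times. These windows overlap, so a match can be the same bases in both. The Col4a5 window held CCAAT and GGGCGG once each, and the Col4a6 window GGGCGG and ATTGAC once each. Among 32851 mouse promoter windows of the same length, 37.4% held CCAAT, 35.7% GGGCGG, 13.6% TATAAA, 7.54% ATTGAT and 6.27% ATTGAC. These are matches of letters and no more than that.

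Some facts of the 6 arrays bear on the members. All 3 Onecut2 probe sets, which the study places at the 3′ end of the gene, were brighter in OC2-KO, at 8.52 or more against 7.01 or less in OC2-WT. They separate the arrays by label but do not show the loss of the gene. The study reported this rise from the same arrays and found the 5′ coding part virtually undetectable by qPCR. It proposes that RNA of the leftover sequence is upregulated without functional protein. Arrays with the same replicate number deviated together from their genotype means. The 2 arrays numbered 3 stood apart in RNA quality, with the 3′ probe set of beta-actin above the 5′ one by 2.95 and 3.39 on the log2 scale, against 0.71 to 1.41 in the others. The library labelled OC2-WT 3 also had the lowest lens signal, and Xist, the transcript of the inactive X chromosome, was near background in both arrays numbered 1, bright in both numbered 2, and bright in OC2-WT 3 but not in OC2-KO 3.

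Among the type IV collagens, probe sets of Col4a3 and Col4a4 were the ones higher in OC2-KO, before correction for multiple tests. At an unadjusted p of 0.05, 4 of the 8 members kept by the expression filter (mean log2 intensity over 7 in either genotype) were higher in OC2-KO. They comprised 1 of the 2 Col4a3 probe sets and all 3 of Col4a4, by 0.71 to 1.00 on the log2 scale. One of them, 1425772_at of Col4a4, passed the filter only through its OC2-KO mean, so it enters both numbers of that count by way of the difference itself, and the counts over all 12 members do not depend on the filter. Over all 21176 probe sets kept, 0.661% were higher and 0.326% lower at that threshold, and none of the collagens was lower. After Benjamini-Hochberg adjustment over all probe sets kept, limma called 0 members and 0% of probe sets (smallest adjusted p 0.210, 209 probe sets at an unadjusted p of 0.05), so no collagen passed the corrected test. Of all 12 members, filtered or not, 4 had every OC2-KO array above every OC2-WT array, against 2.75% of all probe sets, and these were the same 4. The study listed Col4a3 and Col4a4 as higher from these same arrays, so their direction is not independent evidence.

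**Figure D1:**
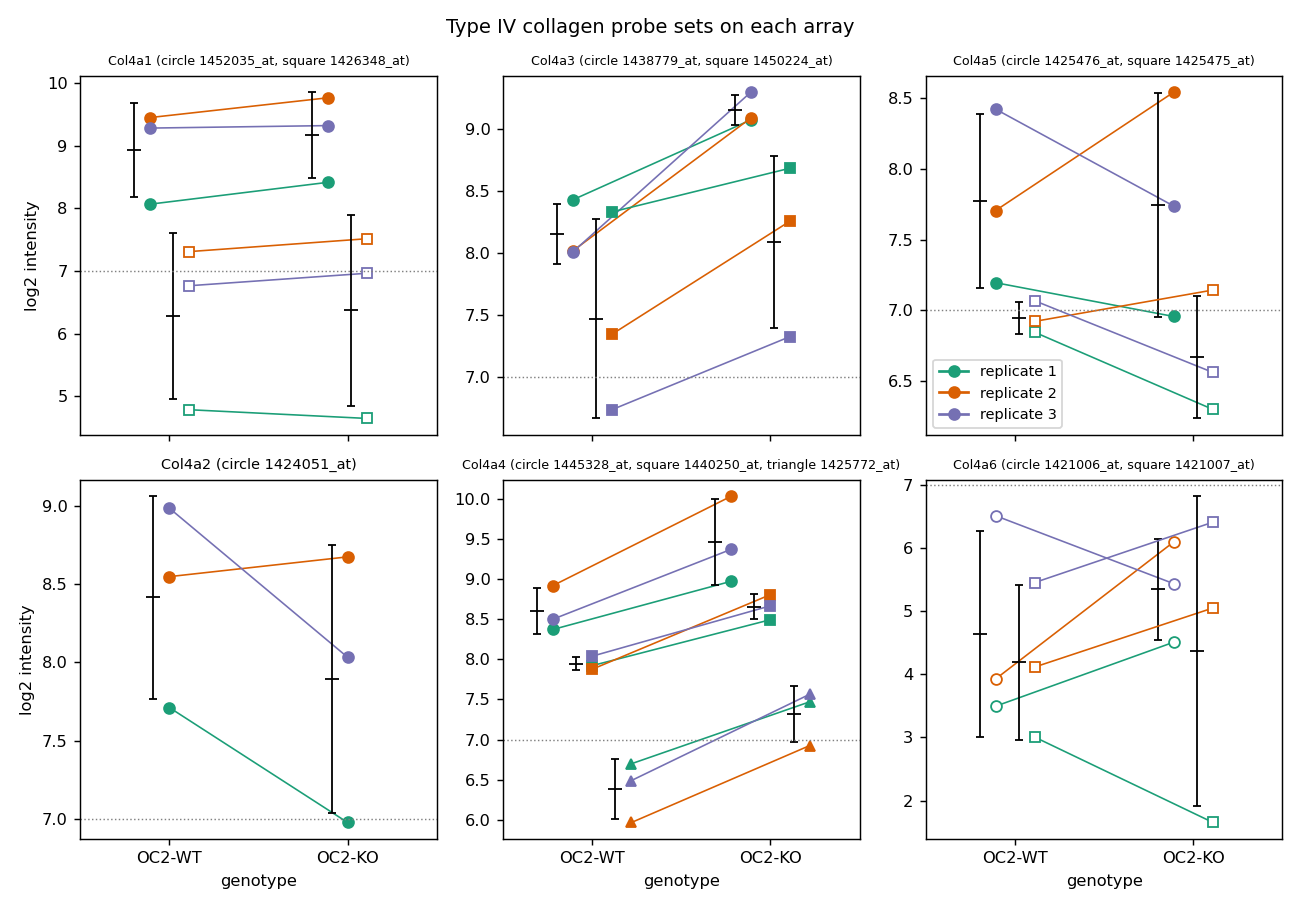
Log2 intensity of the 12 type IV collagen probe sets on each array, 1 panel per gene, with gene partners above each other. Lines join OC2-WT and OC2-KO arrays of the same replicate number, black bars are the mean and SD of 3 arrays, open symbols are probe sets below the filter and the dotted line is the filter at 7. All 3 lines go up in each Col4a3 and Col4a4 probe set and in 1452035_at of Col4a1, and in Col4a1 the arrays numbered 1 lie lowest in both genotypes.

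Col4a3 encodes the chain that carries the Goodpasture antigen. Its probe set 1438779_at read 8.43, 8.01 and 8.01 in OC2-WT arrays 1 to 3 against 9.07, 9.09 and 9.30 in OC2-KO arrays 1 to 3. All OC2-KO arrays were brighter than all OC2-WT arrays, with 0.65 between the nearest of them. The difference was 1.00 ± 0.22 (SE, 3 against 3 arrays, 95% interval 0.49 to 1.52), a 2.00-fold higher intensity, at an unadjusted limma p of 0.00246 and an adjusted p of 1. Arrays of the same number differed by 0.65, 1.07 and 1.29.

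The second Col4a3 probe set, 1450224_at, gave a less clear reading. It read 8.33, 7.34 and 6.73 in OC2-WT against 8.68, 8.26 and 7.32 in OC2-KO, so the genotypes overlapped. In both genotypes the array numbered 3 was the dimmest and the array numbered 1 the brightest, which was not so for 1438779_at. The difference was 0.62 ± 0.50 (95% interval -0.55 to 1.79, unadjusted limma p of 0.251, adjusted p = 1). Within each number OC2-KO was the brighter array, and with the replicate number as a block the unadjusted limma p was 0.0150. Both Col4a3 probe sets had the same sign, and only 1438779_at was past the threshold without the block.

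Col4a4 encodes the partner that folds together with Col4a3. Probe set 1445328_at read 8.37, 8.92 and 8.50 in OC2-WT against 8.97, 10.03 and 9.37 in OC2-KO. The genotypes did not overlap, but the dimmest OC2-KO array lay 0.053 above the brightest OC2-WT array. The difference was 0.86 ± 0.32 (95% interval 0.10 to 1.62, unadjusted limma p of 0.0310, adjusted p = 1).

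The other Col4a4 probe sets were also brighter in each OC2-KO array. Probe set 1440250_at read 7.92, 7.88 and 8.04 in OC2-WT against 8.49, 8.80 and 8.67 in OC2-KO (SD 0.084 and 0.16, n = 3 each). Its difference was 0.71 ± 0.20 (95% interval 0.23 to 1.18, unadjusted limma p of 0.00938, adjusted p = 1). Probe set 1425772_at was dim, at 6.70, 5.97 and 6.49 in OC2-WT against 7.47, 6.93 and 7.56 in OC2-KO, and passed the filter only through its OC2-KO mean. Its genotypes were separated by 0.23, and it differed by 0.93 ± 0.29 (unadjusted limma p of 0.0139, adjusted p = 1).

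Without any filter 3 of all 12 members were higher at an unadjusted p of 0.05, against 1.55% of all probe sets. They were 1438779_at (unadjusted limma p of 0.0109), 1440250_at (0.0329) and 1425772_at (0.0353), while 1445328_at had a p of 0.0635. With the replicate block 5 of 8 were past 0.05, all higher, against 2.09% of all probe sets kept. When both arrays numbered 2, or both numbered 3, were left out, 2 of 8 remained past 0.05, 1438779_at with 1425772_at in the former case and 1438779_at with 1440250_at in the latter. The probe set 1438779_at was past 0.05 in all 21 alternative settings, 1440250_at in 20 of 21, 1425772_at in 17 of 20 and 1445328_at in 12 of 21.

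**Figure D2:**
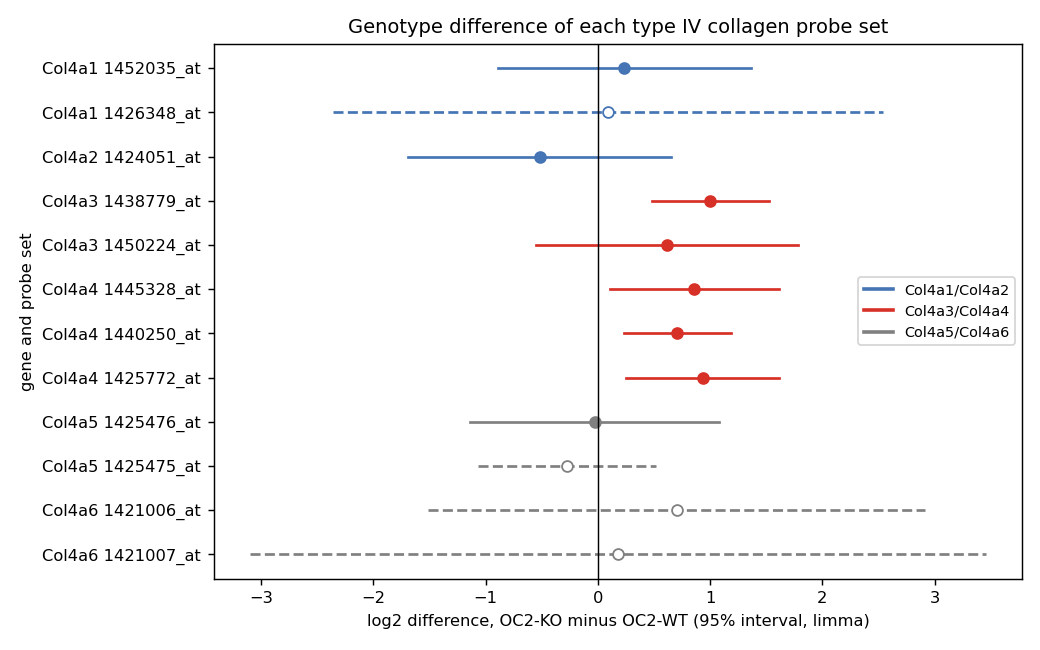
Difference in log2 intensity, OC2-KO minus OC2-WT, of each of the 12 probe sets with its 95% interval from limma, 3 against 3 arrays. Filled points passed the expression filter, and open points with dashed lines did not and are from the fit without a filter. The intervals of 1438779_at and of all 3 Col4a4 probe sets lie above 0, and those of the other 8 members include 0.

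Col4a1 and Col4a2, the chains of the widespread network, gave wide intervals around 0 in the fit without the replicate block. The Col4a1 probe set 1452035_at read 8.07, 9.45 and 9.28 in OC2-WT against 8.42, 9.77 and 9.32 in OC2-KO, a difference of 0.24 ± 0.48 (95% interval -0.89 to 1.36, unadjusted limma p of 0.638, adjusted p = 1). Its arrays numbered 1 were the dimmest of each genotype, and OC2-KO was the brighter array within every number, by 0.35, 0.32 and 0.040. The other Col4a1 probe set, 1426348_at, was below the filter at 4.79, 7.31 and 6.77 in OC2-WT against 4.65, 7.52 and 6.96 in OC2-KO, again with the arrays numbered 1 lowest. The difference there was 0.089. For both Col4a1 probe sets the sign turned when OC2-WT 1 was left out (-0.20 and -0.66), and for 1452035_at also without OC2-KO 2 (-0.064). The dimmer 1426348_at was refitted only where it passed the filter, which was without OC2-WT 1, OC2-KO 1 or both, so the other omissions were not read for it.

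Col4a2 had 1 probe set, 1424051_at, at 7.71, 8.55 and 8.98 in OC2-WT against 6.98, 8.67 and 8.03 in OC2-KO. It was dimmer in OC2-KO in 2 of 3 array pairs and brighter in the pair numbered 2. The difference was -0.52 ± 0.50 (95% interval -1.69 to 0.66, unadjusted limma p of 0.332, adjusted p = 1). The Col4a1 interval included the 1.00 measured for Col4a3, and the Col4a2 interval ended below it, at 0.66. That 1.00 has its own interval of 0.49 to 1.52, so this is no test of a difference. With the replicate block the SE was 0.16 for 1452035_at and 0.25 for 1424051_at (unadjusted limma p of 0.197 and 0.0843).

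Col4a5, the X-linked partner of Col4a3 and Col4a4 in their network, showed no difference that these arrays could resolve. Probe set 1425476_at read 7.20, 7.71 and 8.42 in OC2-WT against 6.96, 8.54 and 7.74 in OC2-KO, a difference of -0.029 ± 0.47 (95% interval -1.14 to 1.08, unadjusted limma p of 0.953, adjusted p = 1). It was higher in OC2-KO by 0.84 within number 2, and changed by -0.24 within number 1 and -0.69 within number 3. Its sign turned under array weights (0.12) and without OC2-WT 3 (0.30) or OC2-KO 1 (0.37). The other Col4a5 probe set, 1425475_at, lay below the filter at 6.84, 6.92 and 7.07 in OC2-WT against 6.30, 7.14 and 6.56 in OC2-KO (difference -0.28).

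Both Col4a6 probe sets were below the filter. Probe set 1421006_at read 3.50, 3.93 and 6.51 in OC2-WT against 4.51, 6.10 and 5.43 in OC2-KO, and 1421007_at read 3.01, 4.12 and 5.45 against 1.65, 5.05 and 6.41. Each spanned more than 1 on the log2 scale within either genotype, and the genotypes overlapped in both, so no direction was read from Col4a6. Xist read 2.40, 11.98 and 12.60 in OC2-WT against 4.77, 12.25 and 2.20 in OC2-KO (log2 intensity, 1427262_at), so for these X-linked genes the pair numbered 3 set arrays of unlike Xist level against each other. The part of that in the X-linked values was not tested.

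The members divided by what their variation followed. Of the sum of squares over the 6 arrays, genotype took 91.1% in 1438779_at and replicate number 2.38%. In Col4a4 genotype took 92.3% in 1440250_at, 71.5% in 1425772_at and 60.2% in 1445328_at. Over all probe sets kept the median share was 5.003% for genotype and 71.0% for replicate number, and 1.96% of them reached the lowest Col4a4 share. Col4a1 was at the other end, with 94.8% of 1452035_at and 99.4% of 1426348_at following replicate number, and Col4a2 followed it for 73.1%. The second Col4a3 probe set had 20.3% with genotype and 77.0% with number.

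**Figure D3:**
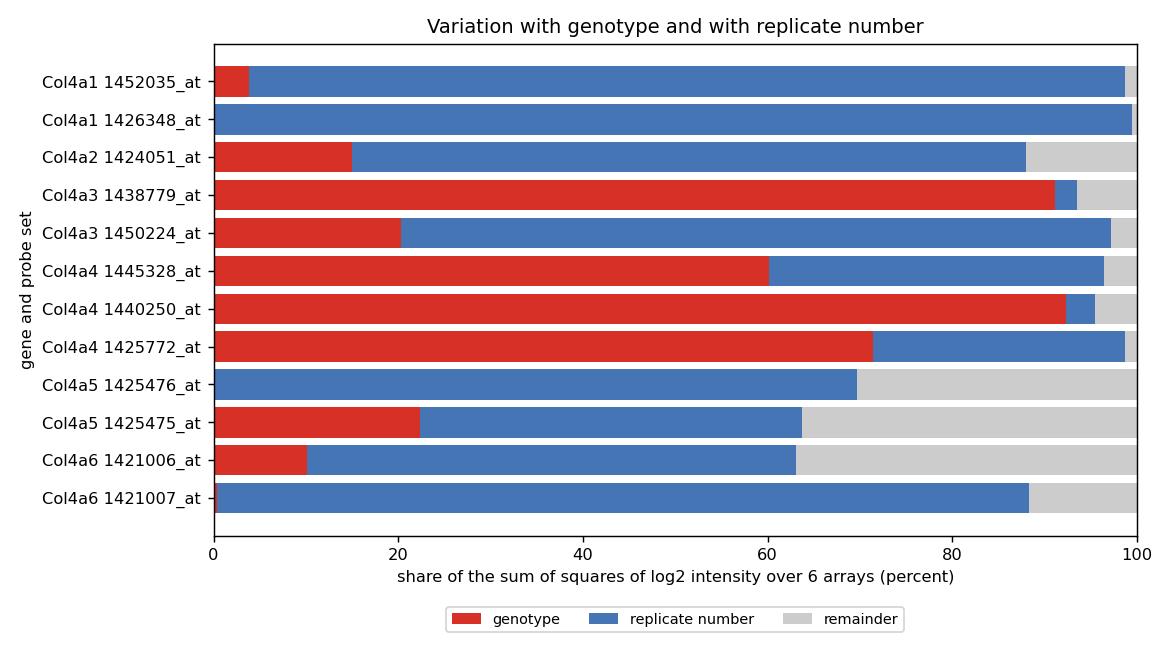
Share of the sum of squares of log2 intensity over the 6 arrays that went with genotype, with replicate number and with neither, in percent, for each type IV collagen probe set. Genotype takes 60.2% or more in 1438779_at and the 3 Col4a4 probe sets, and replicate number takes more than genotype in the other 8.

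Whether Col4a3 and Col4a4 differed from Col4a1 and Col4a2 in their response was tested on the difference of log2 intensities within each array. Col4a3 (1438779_at) minus Col4a1 (1452035_at) was 0.36, -1.43 and -1.28 in OC2-WT against 0.66, -0.68 and -0.02 in OC2-KO. The mean moved by 0.77 and the genotypes overlapped (exact two-sided permutation test, p = 0.3, where 3 against 3 arrays cannot go below 0.1). All 10 pairings of a Col4a3 or Col4a4 probe set with one of Col4a1 or Col4a2 moved upwards, by 0.38 to 1.52, with exact p from 0.1 to 0.5 and an adjusted p of 0.5 in each. Only Col4a4 (1445328_at) relative to Col4a2 did not overlap. Within the numbers 1, 2 and 3, Col4a3 minus Col4a1 was higher in OC2-KO by 0.30, 0.76 and 1.25. A different response of the gene pairs was not shown by this test, which takes no account of the numbers and could not reach 0.05.

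Genes next to the collagen pairs, where kept by the filter, did not differ past the threshold. Of the 3 protein-coding genes on either side of Col4a3/Col4a4, those kept by the filter changed by 0.048 (Irs1, an insulin receptor substrate), 0.084 (Rhbdd1, a rhomboid protease), 0.14 (Mff, a mitochondrial fission factor) and -0.16 (Agfg1), each with an unadjusted limma p above 0.05. Beside Col4a1/Col4a2 the largest change was -0.66 in Myo16, an unconventional myosin (unadjusted limma p of 0.0694). By Col4a5/Col4a6, Psmd10 was at 0.17, Atg4a at -0.29 and Nxt2 at -0.056, each with an unadjusted limma p above 0.05. Nyap2 and Tm4sf20 by Col4a3/Col4a4 were below the filter. Tnfsf13b and Rab20 by Col4a1/Col4a2, and Vsig1, Irs4 and Gucy2f by Col4a5/Col4a6, gave no value either.

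The genes that build, bind and degrade type IV collagen were read from 4 lists, 57 genes in all, of which 32 passed the filter, each gene by its brightest probe set. At an unadjusted p of 0.05, 0 were higher and 0 lower, against 0.732% and 0.253% of 11065 genes. Their median difference was -0.070, that of the 11065 genes -0.0048, and 11 of the 32 lay above 0.

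Among the basement membrane partners 6 of 17 were kept, with a median of -0.12. Hspg2, the heparan sulfate proteoglycan perlecan, was at 0.54 and Agrn, its relative agrin, at -0.62 (unadjusted limma p of 0.247 and 0.256). The laminin chains Lamc1 and Lamb1 were at -0.39 and -0.14. Nid1, the nidogen that bridges laminin and type IV collagen, was below the filter.

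Of the genes for folding, modification and crosslinking 17 of 20 were kept (median 0.0076). The prolyl 3-hydroxylases P3h3 and P3h2 were at 0.35 and 0.26, Sparc, a secreted collagen-binding protein, at 0.24, and Ctage5, which helps load collagen for export, at 0.14. Receptors had 5 of 11 kept (median -0.034), with the integrin chains Itgav, Itga3 and Itgb1 at -0.15, -0.14 and 0.13 and the discoidin receptor Ddr1 at -0.034. Breakdown enzymes and their inhibitors had 4 of 9 kept (median -0.079), with the gelatinase Mmp9 at -0.17, the inhibitors Timp2 and Timp3 at -0.078 and -0.081 and the membrane protease Mmp14 at -0.0016.

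**Figure D4:**
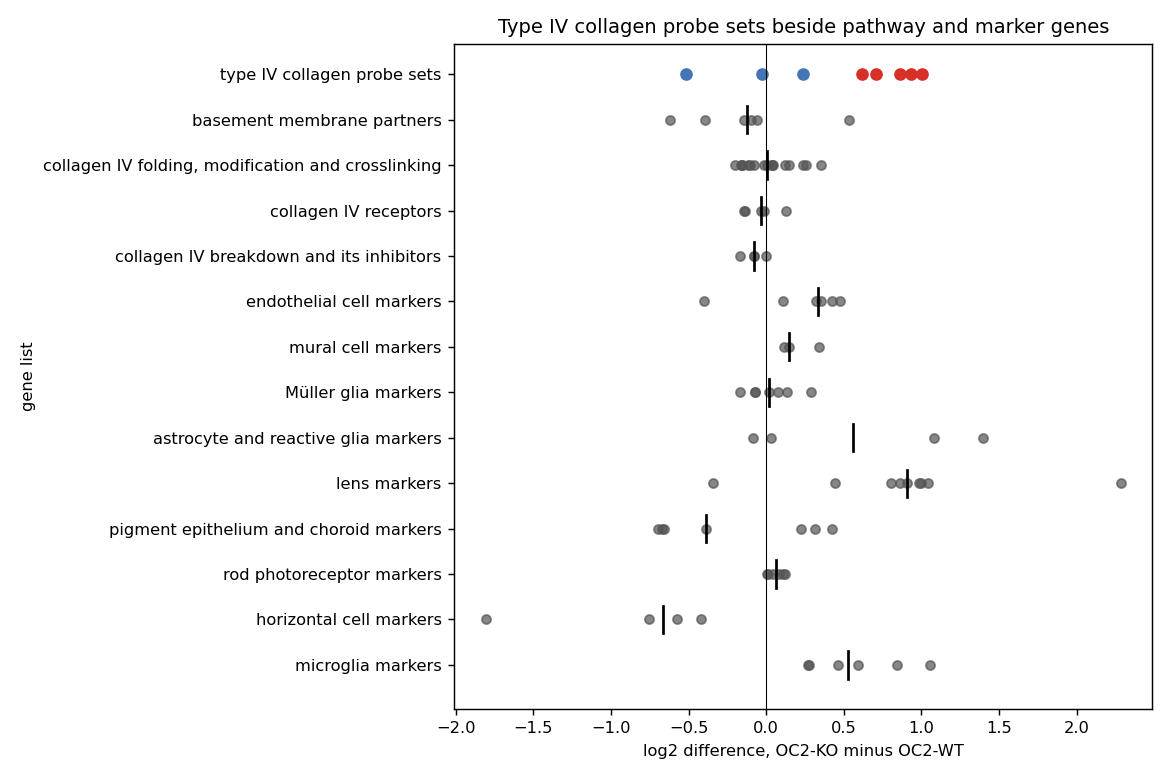
Difference in log2 intensity, OC2-KO minus OC2-WT, of the type IV collagen probe sets kept (top row, Col4a3 and Col4a4 in red, the others in blue) and of the genes of the pathway and marker lists by their brightest probe set. Short vertical lines are list medians. The 4 pathway lists have medians between -0.12 and 0.0076, and the lens and microglia medians lie at 0.91 and 0.53. Some members passed the filter only through the genotype in which they were higher.

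Type IV collagen is made by several cell types in and beside the retina, so their markers were read on the same arrays. From bulk RNA alone, fewer cells of a type and less RNA per cell cannot be told apart. For horizontal cells the study counted stained cells and found them significantly reduced in OC2-KO, which these arrays do not measure. Horizontal cell markers were lower in 2 of 4 kept genes, against 0.253% of all genes. These were Calb1, the calcium-binding calbindin (-0.76), and Septin4 (-0.57), with unadjusted limma p of 0.0122 and 0.0366. The study reported both as lower from these same arrays, so that count is not independent evidence. With the replicate block 3 of 4 were past 0.05, while the calls over all 21176 probe sets kept rose from 209 to 887. The added gene, Onecut1, passed the filter only through its OC2-WT mean (7.36 against 5.56 in OC2-KO). It therefore enters both numbers of that count by way of the difference itself. The Müller glia markers, 7 of 7 kept, had 0 past the threshold and a median of 0.016, and the rod markers, 6 of 7 kept, had 0 and a median of 0.064.

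Some reactive glia and microglia genes were higher in OC2-KO, before correction. Of the astrocyte and reactive glia list 2 of 4 kept genes were higher, against 0.732% of all genes. These were Gfap, an intermediate filament (1.397, unadjusted limma p of 0.0247), and Cd44, a hyaluronan receptor (1.08, unadjusted limma p of 0.0486). The study reported both as higher from these same arrays, so that count is not independent evidence. Vim, another intermediate filament, and S100b, a calcium-binding protein, were at -0.085 and 0.032. The summed signal of the list overlapped, at 11.57 to 12.55 in OC2-WT against 11.66 to 12.78 in OC2-KO. Vim is much the brightest of the 4, so this sum mostly repeats Vim. Gfap and Cd44 each had every OC2-KO array above every OC2-WT array, as did 2.75% of all probe sets. Of the microglia list 6 of 7 were kept, all above 0 (median 0.53), with 1 past the threshold, the microglial adaptor Tyrobp at 1.05. Tmem119 passed the filter only through its OC2-KO mean (7.02 against 6.18 in OC2-WT), so its sign came with its being kept. The summed microglia signal was 11.26 to 11.51 in OC2-WT against 11.70 to 12.01 in OC2-KO on the log2 scale, without overlap. The part of these cells in the collagen result was not tested. No marker of any list passed limma's adjusted threshold.

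Endothelial markers, from cells that make Col4a1 and Col4a2, had 0 of 6 kept genes past the threshold and a median of 0.34, with Ramp2, a receptor partner, at 0.42, Egfl7, a secreted vessel protein, at 0.32, Cldn5, of tight junctions, at 0.48 and Esam, an adhesion molecule, at -0.40. With the replicate block 1 of 6, Cldn5, was past 0.05 and higher, against 2.09% of all probe sets kept. Their summed signal was 11.01 to 11.88 in OC2-WT against 11.21 to 12.08 in OC2-KO, higher in OC2-KO within every number by 0.19, 0.20 and 0.081. In both genotypes it was lowest in the array numbered 1, as Col4a1 was. That is not particular to vessels. The sums of the basement membrane, receptor, breakdown, mural, pigment epithelium and horizontal cell lists were also lowest there in both genotypes. The part of endothelial cells in the collagen values was not tested. Mural cell markers had 0 of 3 past the threshold (median 0.15).

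The lens list was kept in full, with 0 of 9 genes past the threshold, 8 above 0 and a median of 0.91. Bfsp1 and Mip passed the filter only through their OC2-KO means, and Lim2, the gene below 0, only through its OC2-WT mean. The signs of those genes came with their being kept, and they enter that count and median. Its summed signal was 15.51, 14.41 and 12.06 in OC2-WT against 14.71, 15.25 and 14.74 in OC2-KO, so OC2-WT 3 was far below the others. Within the numbers 1, 2 and 3 it changed by -0.80, 0.84 and 2.68. Without OC2-WT 3, the Col4a3 probe set 1450224_at differed by 0.25, its smallest value in any setting, and 1438779_at by 0.93. The part of lens tissue in the collagen values was not tested. Pigment epithelium and choroid markers, 7 of 9 kept, had 0 past the threshold and a median of -0.39. With the replicate block 1 was past it, as were 887 of all 21176 probe sets kept.

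**Figure D5:**
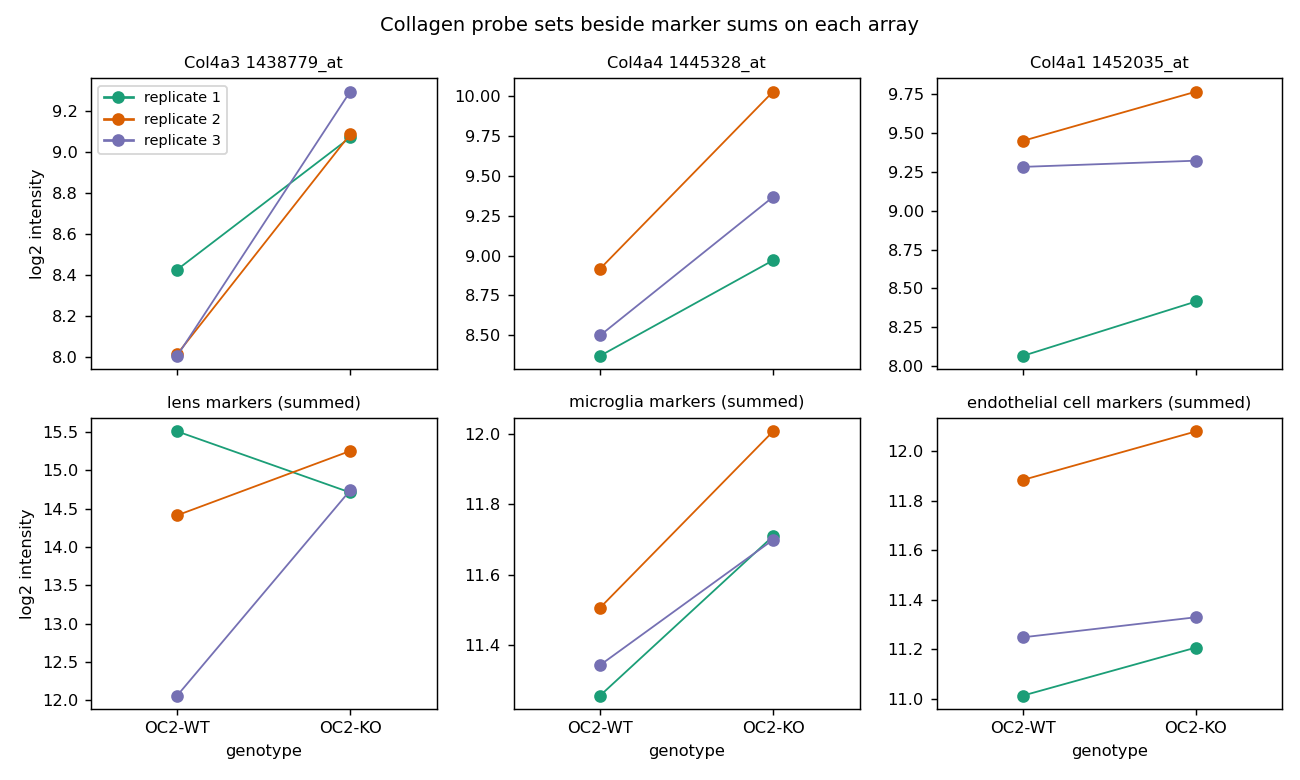
Log2 intensity on each array of the brightest Col4a3, Col4a4 and Col4a1 probe sets (top) and of the summed lens, microglia and endothelial cell markers (bottom), with lines joining arrays of the same replicate number. Lens signal is lowest in OC2-WT 3 at 12.06 and highest in OC2-WT 1 at 15.51. Col4a1 and the endothelial markers share their lowest arrays, those numbered 1, with several lists not drawn here.

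The patterns most like those of the brightest Col4a3 and Col4a4 probe sets were sought over the 6 arrays, as a description. Closest to Col4a3 (1438779_at) were Numbl (Pearson r = 0.98), Dclk1, Onecut2, Gadd45b and Oaf, the last at r = 0.96, and 0.225% of probe sets had r above 0.9. Closest to Col4a4 (1445328_at) were Smcr8 (r = 0.99), Slc14a1, Irf1, Osmr and Slc7a8, the last at r = 0.97, and 0.209% were above 0.9. The lists share no gene, and all of these values come from 6 arrays of 2 genotypes that share the replicate structure described above.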

How the data were processed

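The authors amplified and biotin-labelled total RNA, hybridised it to Affymetrix mouse arrays and normalized the scans with MAS5 (version not stated in what was read here). The values deposited by the authors are intensities on a linear scale, on which the 2% trimmed mean of each array was set to 500, and this hides a difference shared by all genes. Groups came from the genotype in the labels, and all columns of values were assigned to a sample. Log2 values of the 6 arrays were fitted in limma 3.58.1 (lmFit, eBayes; R 4.3.3; residual degrees of freedom 4) for probe sets with a mean log2 intensity over 7 in either genotype, two-sided, with Benjamini-Hochberg adjustment over all probe sets kept. Of the probe sets 34945 had 1 gene symbol, 932 several and 9160 none, and none was named from several. Medians ran from 94.9 to 110 per array, and no 2 arrays were identical. The number of arrays limits the precision.

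Named genes were all type IV collagen genes, in each list the 4 members with the smallest p at most, 5 genes most like Col4a3 and Col4a4, Onecut2, Xist and the neighbours of each pair. Nid1, Lama2, Bfsp1, Lim2, Nyap2, Tm4sf20, the other neighbours without a value and the 3′ and 5′ control probe sets were named after their values were seen. The members and lists were chosen with earlier results of these data known. Deviations from genotype means correlated at 0.576 to 0.590 within replicate numbers and at -0.429 to -0.135 between them, so the numbers were taken as pairs from the data, since the labels say nothing of litters by number. The replicate block leaves 2 residual degrees of freedom. Alternatives were a filter at 8 or none, centring on the median or quantile normalization, array weights, a floor at 6, an intensity trend (robust or not), the block (with a trend or not), the methods' t-test, also with unequal variances, and leaving out each array. Leaving out both arrays of a number was added after seeing the data. The fits were tested on simulated data.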

Additional observations from a re-analysis of the deposited data

How the results depend on the processing

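No type IV collagen probe set passed the adjusted threshold under any of the 21 alternatives, with member adjusted p between 0.573 and 1. The count past an unadjusted p of 0.05, 4 of 8 as reported, ran from 2 to 5. It was 5 with the replicate block, and 3 of 8 under the methods' t-test, 0 after Benjamini-Hochberg adjustment. With arrays left out it ran from 2 to 4, and was 2 without both arrays numbered 2 and without both numbered 3, settings chosen after seeing the data. Over all probe sets kept, the count at that threshold was 209, against 887 with the replicate block, 436 with array weights, 560 without OC2-KO 2, 1144 with no filter and 127 with the filter at 8. The cause was not tested. The replicate block raised 1450224_at past 0.05 and changed no other collagen call. The 5 probe sets of Col4a3 and Col4a4 kept their sign throughout, at 0.86 to 1.18 for 1438779_at, 0.60 to 0.79 for 1440250_at, 0.72 to 1.16 for 1425772_at, 0.57 to 1.10 for 1445328_at and 0.25 to 1.05 for 1450224_at.

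Of the 8 probe sets kept and 1426348_at, signs turned in both of Col4a1 and in 1425476_at of Col4a5. The other 3 below the filter were not refitted with arrays left out. With arrays left out, 1452035_at ran from -0.20 to 0.61, with -0.20 without OC2-WT 1 and -0.064 without OC2-KO 2. Likewise 1426348_at ran from -0.66 to 0.95, over only the 3 settings in which it passed the filter. The range of 1425476_at was -0.46 to 0.37, with 0.30 without OC2-WT 3 or without both arrays numbered 3 and 0.076 without both numbered 1. Array weights gave 0.12 for 1425476_at. Tmem119, 1 of the microglia genes past 0.05 with the block, passed the filter only through its OC2-KO mean. With the block, markers past 0.05 were 4 against 1 for microglia, and 1 against 0 for endothelial cells and for pigment epithelium. Over all probe sets kept the block raised that count from 209 to 887. With no filter the laminin chain Lama2, dim at 6.13 in OC2-WT and 4.71 in OC2-KO, was the 1 basement membrane partner past 0.05 (-1.42), and the reactive glia and horizontal cell lists each had 1, against 2. With 3 arrays a genotype and no block, the 95% intervals of 1452035_at, 1424051_at and 1425476_at reach more than 1 to either side of the estimate on the log2 scale. With the block their SE was 0.16, 0.25 and 0.31, and none was past an unadjusted limma p of 0.05.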
